A study of Mus musculus with 58 samples.

Results

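The 10 genes described here are commonly used as astrocyte markers. They are *Gfap*, *Vim*, *Aqp4*, *Gja1*, *Slc1a2*, *Slc1a3*, *Glul*, *Aldh1l1*, *S100b* and *Aldoc*, and their levels were read in 2 brain regions of aged *APOE* targeted replacement mice. The genes were chosen by name, and all 10 were found by symbol among the 31246 genes of each region. The regions were the entorhinal cortex (EC), which is vulnerable in Alzheimer's disease, and the primary visual cortex (PVC), which is relatively spared. In each region RNA was sequenced from 10 male *APOE3/3* and 19 male *APOE3/4* mice on C57Bl/6, aged 14 to 15 months, giving 58 libraries, and the same 29 mouse numbers were used in both regions. In all of these mice, *APOE3/3* animals included, human *APOE* replaces mouse *Apoe* and is driven by the mouse promoter, so neither group carries a working mouse *Apoe* gene. The mice of the whole study, which also included mice used for staining, came from more than 1 colony. Whether the sequenced mice did, and the colony of each, is not given in the sources used here.

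The value analysed for each gene and region was the authors' mean normalized count, that is, reads per gene divided by a size factor for each library and averaged over all 29 libraries of the region. Because *APOE3/3* and *APOE3/4* mice enter the same mean, the data described here compare regions and genes, not genotypes. No value of a single mouse was analysed, so no mean has an SD, no difference has a test, and depth per library is unknown. The regions were normalized separately by the authors. Summed over genes, the means came to 49385488 (EC) and 27058393 (PVC), which is a ratio of 1.83, so PVC values were multiplied by 1.857 before they were set beside EC values. This factor was the median EC to PVC ratio over the 15642 genes whose mean was 10 or more in both regions. A difference between regions is given as log2 of EC over scaled PVC and was called past 1.5-fold, which is 1 mean against 1 mean with no replicate check. Levels of different genes are compared only per kilobase of exon, and a ratio of counts between genes serves only to set the regions side by side. Mouse *Apoe*, the replaced gene, had a mean normalized count of 636 in the EC against 344 in the PVC, or 639 after scaling. Its log2 difference was -0.01. How many of these reads came from human *APOE* was not tested.

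Astrocytes are the glial cells that take up glutamate and potassium released by neurons, convert glutamate to glutamine, supply metabolic fuel and surround blood vessels with their endfeet. They are also a main source of apolipoprotein E in the brain. The 10 genes stand for different parts of this work: the cytoskeleton (*Gfap*, *Vim*), glutamate uptake and conversion (*Slc1a2*, *Slc1a3*, *Glul*), channels of the endfeet and of cell contacts (*Aqp4*, *Gja1*), and cytosolic proteins (*Aldh1l1*, *S100b*, *Aldoc*). Several are not made by astrocytes alone. *Vim* is also made by endothelial and meningeal cells, and *Glul* and *S100b* by some oligodendrocytes.

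All 10 genes were well above the minimum in both regions, and they did not share a direction between them. The filament and channel genes had higher means in the EC, led by *Gfap* at 1.53-fold and *Aqp4* at 1.46-fold, whereas *Aldh1l1* and *Glul* had higher means in the PVC, by 1.28-fold and 1.20-fold. *Slc1a2* and *Aldoc*, among the most abundant of the 10, were within 1.01-fold of equal between regions, and the sign of their difference changes with the scaling. Only *Gfap* passed 1.5-fold in either direction, so 1 of 10 genes was called higher in the EC, where 6.78% of the 15642 genes were, and 0 of 10 were called lower, where 5.38% of all genes were. At a margin of 25% rather than 1.5-fold, *Gfap* and *Aqp4* were higher in the EC and *Aldh1l1* was lower, against 14.4% of all genes higher and 11.1% lower. The median log2 difference of the 10 genes was 0.09, with a range from -0.35 to 0.62, beside 0.00 for all genes, whose 5th and 95th percentiles were -0.61 and 0.70. The median size of the difference, regardless of sign, was 0.27 for the 10 genes and 0.15 for all genes. In these bulk samples fewer cells of a type and less RNA per cell cannot be told apart.

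**Figure D1:**
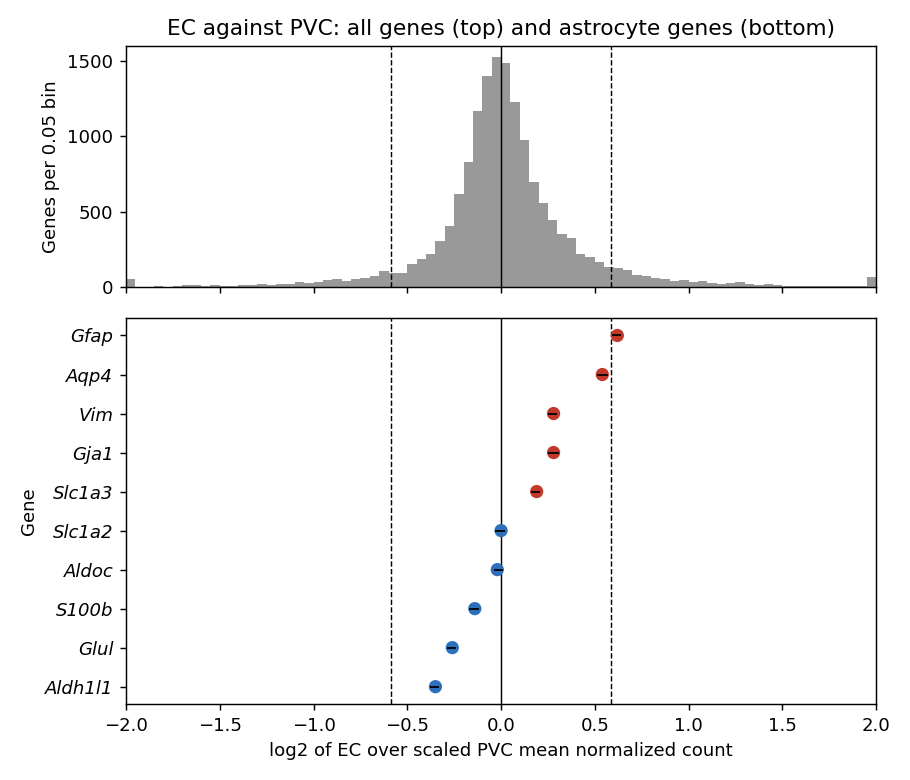
Top, number of genes in each bin of 0.05 of log2 EC over scaled PVC, for the 15642 genes at or above the minimum, with values beyond the axis placed in the end bins. Bottom, the 10 astrocyte genes on the same axis, as 1 point per gene, with red for EC above PVC and blue for EC below PVC; black bars span the 6 scalings tried, and dashed lines mark 1.5-fold. *Gfap* at 0.62 lies just outside the line and *Aqp4* at 0.54 just inside it, while the bars of *Slc1a2* and *Aldoc* cross 0, so their sign changes with the scaling.

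Both cytoskeletal genes had higher means in the EC, *Gfap* more so than *Vim*. *Gfap*, which encodes the main intermediate filament protein of astrocytes and is raised in reactive astrocytes, lies on chromosome 11 (chr11:102748650-102762226, minus strand, NCBIM37). Its mean normalized count was 10760 in the EC against 3783 in the PVC, or 7024 after scaling. The log2 difference was 0.62, and it ranged from 0.59 to 0.64 over the scalings, so that *Gfap* stayed past 1.5-fold under each of them. This placed *Gfap* at the 93.7th percentile of all genes. *Vim*, the vimentin gene (chr2:13495554-13504453, plus strand), had means of 1709 and 759, the latter 1410 when scaled. Its log2 difference was 0.28, with EC above PVC under each scaling. Within each region, and thus without any scaling, there were 6.30 *Gfap* counts for each *Vim* count in the EC against 4.98 in the PVC, or 3.49 and 2.76 per kilobase.

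The bases just before the RefSeq start site of *Gfap* are shown because *Gfap* was the one gene of the 10 past 1.5-fold, and those before the RefSeq start site of *Glul* because *Glul* had the highest level per kilobase and the opposite direction. Both were taken from RefSeq promoters (GRCm38.p6), 250 bases upstream only, and each was found once in NCBIM37. The *Gfap* stretch is chr11:102758515-102758764 on the minus strand, which lies inside the *Gfap* span given above because GENCODE vM1 places the outermost start farther upstream, and the *Glul* stretch chr1:155746809-155747058 on the plus strand. Capitals mark motif matches.
Gfap: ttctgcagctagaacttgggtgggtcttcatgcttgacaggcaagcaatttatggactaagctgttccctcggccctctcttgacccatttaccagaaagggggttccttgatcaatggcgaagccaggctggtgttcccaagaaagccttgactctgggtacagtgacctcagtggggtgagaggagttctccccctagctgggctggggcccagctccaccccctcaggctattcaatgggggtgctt
Glul: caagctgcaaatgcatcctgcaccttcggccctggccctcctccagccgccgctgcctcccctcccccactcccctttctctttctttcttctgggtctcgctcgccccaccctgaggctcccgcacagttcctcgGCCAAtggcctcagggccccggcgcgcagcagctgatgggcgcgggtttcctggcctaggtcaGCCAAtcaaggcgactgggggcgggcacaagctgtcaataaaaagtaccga
In the *Glul* stretch both capital runs are TTGGC, part of the sequence bound by nuclear factor I proteins, read on the opposite strand and starting at -114 and -51 from the start site. The *Gfap* stretch held none of the motifs searched, and its GC content was 55.6%, against 64.8% for *Glul*. The motifs, searched on both strands, were TATAAA, TTCNNNGAA (bound by STAT proteins), ACAAAG and ACAATG (bound by SOX proteins) and TTGGC. No matches in these promoters overlapped each other. Promoter entries were found for 9 of the 10 genes, with 2 for *Aldoc*, and 5 of the 10 entries held TTGGC, where 41.5% of 32851 mouse promoters did. TATAAA was in 2 entries (12.4% of all promoters), TTCNNNGAA in 2 (7.02%), ACAAAG in 0 (16.5%) and ACAATG in 0 (10.7%). A match is a description of the letters only, and no match says only that these letters are not in this window.

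The neurofilament genes stood apart from the other intermediate filament genes. In the family of 10, 6 had higher means in the EC and the other 4 in the PVC, and the median log2 difference was 0.11. The 4 on the PVC side were the neurofilament genes *Nefm* (-1.13), *Nefl* (-0.81), *Nefh* (-0.79) and *Ina* (-0.40). Those on the EC side were *Prph* (1.43), which encodes peripherin, *Des* (0.36), *Synm* (0.20), *Nes* (0.02) and the 2 astrocyte genes. *Synm* and *Nes* encode synemin and nestin, partners of *Gfap* and *Vim* in astrocyte filaments. They lay nearer to 0 than *Gfap* did.

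The glutamate genes included the highest levels per kilobase of the 10 genes. *Slc1a2* (chr2:102498816-102630941, plus strand) encodes the main glutamate transporter of the forebrain. Its mean normalized count was 180635 in the EC against 97394 in the PVC, or 180847 after scaling. Per kilobase it ranked 75th in the EC against 78th in the PVC among genes with an annotated length. The log2 difference ranged from -0.03 to 0.02 over the scalings, so that its sign was not fixed. *Slc1a3* (chr15:8584124-8660764, minus strand), the other astrocyte glutamate transporter gene, had means of 32415 and 15309, the latter 28427 when scaled. Its log2 difference was 0.19, with EC above PVC under each scaling. For each *Slc1a3* count there were 5.57 *Slc1a2* counts in the EC against 6.36 in the PVC.

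*Glul* (chr1:155747074-155756853, plus strand) encodes glutamine synthetase, the enzyme that converts glutamate to glutamine in astrocytes. It had means of 62976 in the EC against 40696 in the PVC, or 75567 after scaling. The log2 difference was -0.26, with PVC above EC under each scaling, and *Glul* ranked 43rd per kilobase in the EC against 31st in the PVC. There were 0.349 *Glul* counts for each *Slc1a2* count in the EC against 0.418 in the PVC, or 1.38 and 1.65 per kilobase. The enzyme gene thus stood on the PVC side while the transporter gene was near 0.

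Of the 10 genes, *Glul* was the only one whose coding sequence had a near copy elsewhere in NCBIM37, at 95% identity or more over at least 149 bases, the read length. The copy is the pseudogene Glns-ps1 on chromosome 11, which matched the whole coding length of *Glul* at 96.8% identity and was not found among the genes of the tables. Over 695 windows of 149 bases in the gap-free stretches of the alignment of *Glul* with the copy, 0 were identical to the copy, the median number of mismatches was 3 and the most was 7, while 143 windows (20.6%) had at most 2. How reads that fit both places were counted is not given in the sources used here, so the *Glul* level is uncertain to that extent. Genes on the opposite strand also overlap exons of *Slc1a2*, *Glul* and *Aldh1l1*, and the library kit did not mark strand. Their mean normalized counts in the EC were 15.7 for *Gm13872*, 93.2 for *5830403L16Rik* and 4.14 for *Gm15756*, which is 0.00871%, 0.148% and 0.160% of the astrocyte gene each overlaps. How reads in the shared exons were counted is not given either. Reads there that were counted for neither gene would not show in these values.

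The wider families of transporters and cycle enzymes can be set beside these. Of 7 SLC1 transporter genes, *Slc1a7* was below the minimum, and the median of the other 6 was 0.17. All but *Slc1a2* were on the EC side. These were *Slc1a6* (0.36), *Slc1a5* (0.18), *Slc1a4* (0.16) and the neuronal transporter gene *Slc1a1* (0.06), beside *Slc1a3*. Among 10 genes of the glutamate-glutamine cycle, 3 had higher means in the EC and the other 7 in the PVC, with a median of -0.11. *Gls2*, which encodes a glutaminase acting in the reverse direction to *Glul*, was at -1.05. The glutamine carriers *Slc38a3* of astrocytes and *Slc38a1* and *Slc38a2* of neurons were at -0.10, -0.25 and -0.11, whereas *Slc38a5* was at 0.36. The vesicular glutamate transporter genes were at 0.14 (*Slc17a7*) and -0.68 (*Slc17a6*), and *Glud1* was at 0.21.

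Both channel genes had higher means in the EC. *Aqp4*, the water channel of astrocyte endfeet (chr18:15547903-15562193, minus strand), had a mean normalized count of 7340 in the EC against 2716 in the PVC, or 5044 after scaling. The log2 difference was 0.54, with a range of 0.51 to 0.57 over the scalings, which is just short of 1.5-fold under each of them. The ratio of *Gfap* to *Aqp4* was similar in both regions. There were 1.47 *Gfap* counts for each *Aqp4* count in the EC against 1.39 in the PVC. *Gja1* (chr10:56097106-56110225, plus strand) encodes the main connexin of astrocyte gap junctions. It had means of 9656 and 4275, or 7938 scaled, and a log2 difference of 0.28, with EC above PVC under each scaling.

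Relatives of the channel genes stood on both sides. Of 6 aquaporin genes, *Aqp5* and *Aqp6* were below the minimum. *Aqp9* (0.43) and *Aqp11* (0.41) were near *Aqp4*, and *Aqp1* was at -0.15, which gave a median of 0.42 over 4 genes. Of 10 connexin genes, 5 lay on each side of 0, with a median of -0.08. The other connexin genes linked to astrocytes were *Gjb6* (0.05) and *Gjb2* (0.78). What cells other than astrocytes add to the *Gja1* and *Gjb2* values was not tested. *Gja1* counts stood at 3.49 for each *Gjb6* count in the EC against 2.98 in the PVC. Among the connexin genes of oligodendrocytes, *Gjb1* and *Gjc3* were lower in the EC past 1.5-fold, at -1.67 and -0.79, and so was the neuronal *Gjd2* (-0.69). The vascular *Gja4*, *Gja5* and *Gjc1* were at -0.21, 0.31 and 0.24. Among 10 genes of the dystrophin-linked complex that anchors *Aqp4* at the endfoot, 5 lay on each side and the median was 0.05. *Dag1*, the dystroglycan gene, was at 0.12, with *Agrn* at -0.02, *Dmd* at -0.16 and *Dtna* at -0.27. *Dtnb* was at 0.32, *Sgcb* at -0.07 and *Sgce* at -0.15, and *Sgcd* (1.85) and *Sntb1* (0.89) were past 1.5-fold with means in the EC of 221 and 158. Of the 10 anchoring genes, those 2 were the only ones with a larger EC difference than *Aqp4*.

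The cytosolic genes lay on the PVC side or near 0. *Aldh1l1*, a folate enzyme gene used as a marker of astrocytes throughout the brain (chr6:90436421-90550197, plus strand), had a mean normalized count of 2581 in the EC against 1773 in the PVC, or 3293 after scaling. Its log2 difference of -0.35 was the lowest of the 10 genes and lay at the 10.0th percentile of all genes. *S100b*, which encodes a calcium-binding protein (chr10:75716598-75723904, plus strand), had means of 4240 and 2516, or 4672 scaled, and a log2 difference of -0.14. *Aldoc*, an aldolase gene (chr11:78136470-78141283, plus strand), had means of 38662 and 21054, or 39094 scaled. Its log2 difference ran from -0.04 to 0.01 over the scalings, so that its sign was not fixed. *S100b* and *Aldh1l1* had PVC above EC under each scaling.

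The contrast between *Gfap* and *Aldh1l1* was the widest among the 10 genes, and it needs no scaling because both stand in the same table. There were 4.17 *Gfap* counts for each *Aldh1l1* count in the EC against 2.13 in the PVC, so the ratio was 1.95-fold higher in the EC. For *Aqp4* over *Aldh1l1* the ratios were 2.84 and 1.53, or 1.86-fold higher in the EC. For *S100b* over *Aldh1l1* they were 1.64 and 1.42. These ratios stay as they are whatever factor joins the tables, and *Aldh1l1* was the lowest of the 10 genes by its log2 difference.

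Enzymes and proteins related to the cytosolic genes were within 1.5-fold between regions, with 1 exception. *Aldoa* was at 0.00, and there were 0.476 *Aldoc* counts for each *Aldoa* count in the EC against 0.482 in the PVC. The folate enzyme genes *Aldh1l2*, *Mthfd1* and *Mthfd1l* were at 0.15, 0.03 and -0.27, and with *Aldh1l1* they had a median of -0.12. Of 8 S100 genes, 5 had higher means in the EC, with a median of 0.06. *S100a6* (-0.60) was the exception, past 1.5-fold, and the others were *S100a11* (0.47), *S100a4* (0.19), *S100a10* (0.09), *S100a13* (0.07), *S100a1* (0.04) and *S100a16* (-0.06).

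Per kilobase of exon, the 10 genes spanned 33.1-fold in the EC against 38-fold in the PVC. In the EC the order was *Glul* (18917 mean normalized counts per kilobase), *Slc1a2* (13733), *Aldoc* (11849), *Slc1a3* (3797), *Gja1* (3110), *S100b* (2857), *Gfap* (2551), *Aqp4* (1381), *Vim* (732) and *Aldh1l1* (572). In the PVC, before scaling, it was *Glul* (12225), *Slc1a2* (7405), *Aldoc* (6452), *Slc1a3* (1793), *S100b* (1695), *Gja1* (1377), *Gfap* (897), *Aqp4* (511), *Aldh1l1* (393) and *Vim* (325). The orders were alike but for 2 exchanges of neighbours, *Gja1* with *S100b* and *Vim* with *Aldh1l1*. The widest step in both regions was that from *Aldoc* to *Slc1a3*, 3.12-fold in the EC against 3.60-fold in the PVC, with all exonic bases as the length. With the longest transcript as the length it was 1.90-fold and 2.19-fold, and the widest step was instead *S100b* over *Aqp4* in the EC (1.99-fold) and *Gja1* over *Aqp4* in the PVC (2.60-fold). By all exonic bases, the narrowest step was 1.09-fold in the EC (*Gja1* over *S100b*) and 1.06-fold in the PVC (*Slc1a3* over *S100b*). By the longest transcript it was 1.09-fold in the EC (*Gja1* over *S100b*) and 1.04-fold in the PVC (*Gfap* over *Gja1*). With no spread over mice, it cannot be said which neighbours differ.

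**Figure D2:**
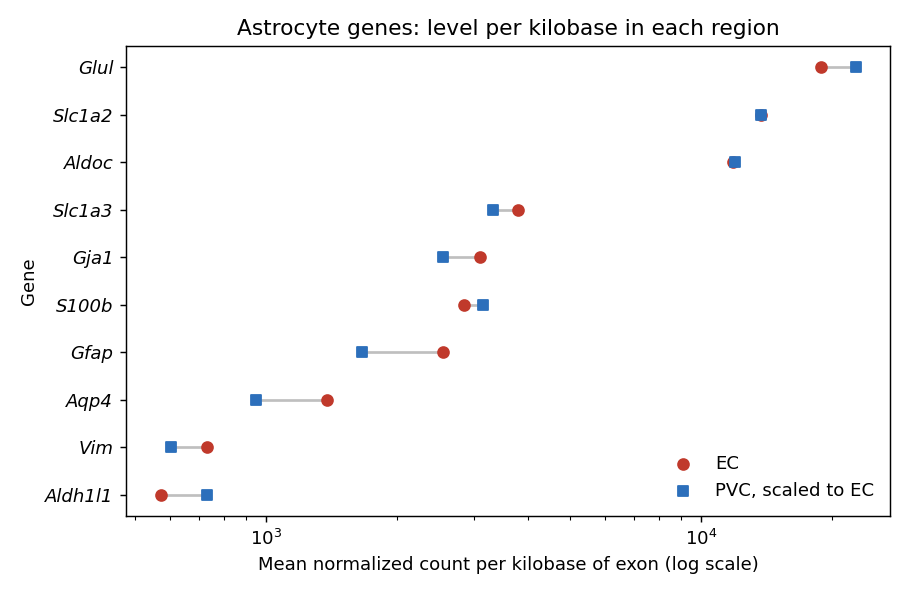
Mean normalized count per kilobase of exon, on a log axis, for the 10 astrocyte genes in the EC (red circles) and in the PVC after multiplication by the scaling factor (blue squares), 1 mean per region with no error available. Grey lines join the regions. *Glul*, *Slc1a2* and *Aldoc* are at the top, by a margin over *Slc1a3* that depends on the length used, and *Gfap* and *Aqp4* show the widest gaps with EC above PVC, while the near-equal pairs of *Slc1a2* and *Aldoc* change sign with the scaling.

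Summed over counts, the 10 genes took a like share of each region, 0.711% of all mean normalized counts in the EC against 0.703% in the PVC, but *Slc1a2*, which was near-equal between regions, alone made up 51.5% and 51.2% of that sum. A further list of 30 genes expressed in astrocytes was also balanced, with 15 above and 15 below 0 and a median of 0.01. Among these *Agt* (0.83), which encodes angiotensinogen, was higher in the EC past 1.5-fold. *Dio2* (-0.77), the gene of the enzyme that activates thyroid hormone, and the potassium channel gene *Kcnj10* (-0.59) were lower past it. *Kcnj10*, named here after its value was seen, and *Aqp4* are both endfoot channel genes, and they stood on opposite sides. What cells other than astrocytes add to the *Kcnj10* value was not tested. Of 17 genes linked to reactive astrocytes, 6 (*Lcn2*, *Steap4*, *Cxcl10*, *C3*, *Tgm1* and *Ptx3*) were below the minimum in at least 1 region. Of the other 11, 9 had higher means in the EC and the other 2 in the PVC. Past 1.5-fold 3 were higher, where 6.78% of the 15642 genes were, and 0 were lower, where 5.38% were. The 11 genes had a median of 0.35. They ran from *S1pr3* (-0.28) to *Cd44* (2.49), whose product, a receptor for hyaluronan, is made by other cells too.

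Genes of some other cell types differed more between regions than the astrocyte genes did. All 10 oligodendrocyte genes, from *Cnp* (-0.99) to *Mobp* (-1.63), were lower in the EC past 1.5-fold. Their summed counts were 48997 in the EC and 126020 in the scaled PVC, 2.57-fold higher in the PVC, with a median of -1.44. All 8 meningeal fibroblast genes were higher in the EC past 1.5-fold, from *Lum* (0.65) to *Dcn* (3.07), with sums of 66355 and 27789 and a median of 1.14. No gene of either list was at 0 in a region. The part of these shifts in the values of *Vim*, *Glul* and *S100b*, which those cells can also make, was not tested. Nor was the part of these shifts in the values of *Gfap*, *Aqp4*, *Gja1*, *Gjb2* and *Kcnj10*. Of the 15642 genes, 6.78% were higher in the EC past 1.5-fold and 5.38% were lower. Among microglia genes 0 of 10 passed 1.5-fold, and among endothelial genes 0 of 8, which is near those shares for lists this short. Their medians were 0.02 (from *C1qb* at -0.06 to *Csf1r* at 0.15) and 0.03 (from *Ly6c1* at -0.15 to *Cdh5* at 0.29). The 6 oligodendrocyte precursor genes had a median of 0.19, from *Sox10* (-0.44) to *Cspg4* (0.58). Neuron genes, of which 11 of 12 were found, had a median of -0.21, with 9 on the PVC side, from *Nefm* (-1.13) to *Stmn2* (0.35). Among genes of structures beside the dissected tissue, 6 hippocampal genes had a median of 0.32, from *Npnt* (-2.28) to *Fibcd1* (2.13), and 4 choroid plexus genes a median of 0.01, from *Ttr* (-2.18) to *Prlr* (0.69).

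**Figure D3:**
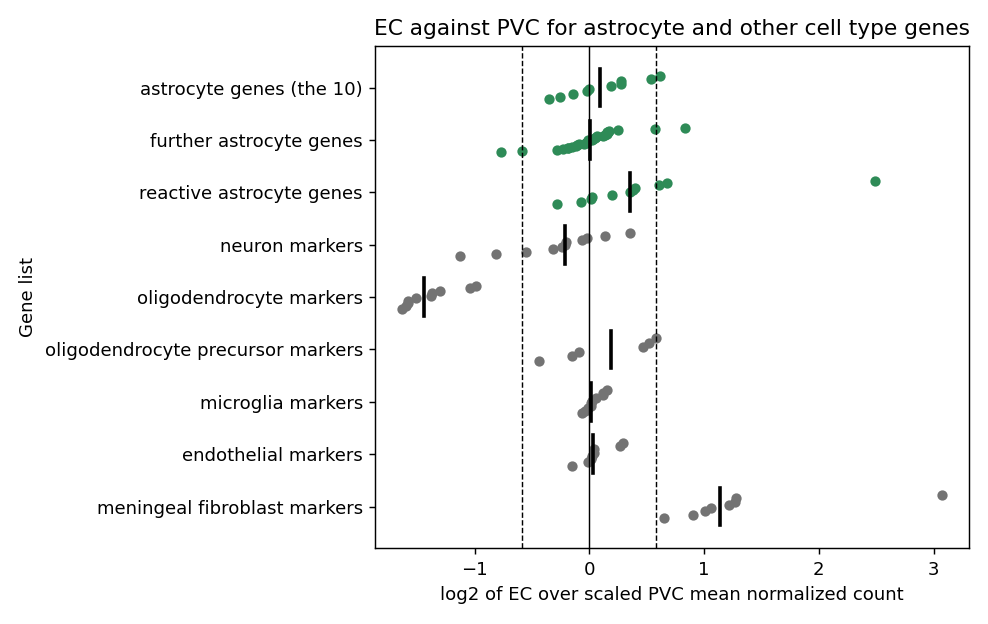
log2 of EC over scaled PVC for each gene (points) of 9 lists, with the median of each list as a black bar and 1.5-fold as dashed lines; green marks the astrocyte lists. The 10 astrocyte genes straddle 0, with *Slc1a2* and *Aldoc* changing sign with the scaling, while all oligodendrocyte genes lie left of the dashed lines and all meningeal fibroblast genes right of them.

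The genes whose pair of regional levels came nearest to the extremes of the 10 were found by distance over the 2 regional means, on the log2 scale per kilobase, among 15088 genes. For *Gfap* they were *Slc6a7* (distance 0.036), *C2cd2l* (0.073) and *Nrsn2* (0.076). For *Aldh1l1* they were *Adipor2* (0.011), *Sat1* (0.017) and *Fundc2* (0.022). With only 2 means per gene, the distance describes levels alone.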

How the data were processed

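RNA was extracted with Trizol from the EC and PVC, and Poly(A)+ libraries were made with the TruSeq RNA Sample Prep Kit v2 and sequenced as single-end reads. According to the submitters' processing notes and the study's methods, reads were aligned to mm9 with TopHat2 (2.0.6) and Bowtie2 (2.0.2.0), counted per gene with HTSeq against a modified NCBIM37 annotation, and normalized with DESeq2 (1.10.1). For each region, 1 results table was deposited by the authors. The column used here is a signal, the mean normalized count over all 29 libraries of a region, deposited by the authors with both genotypes pooled. The other columns hold the authors' comparison of *APOE3/4* with *APOE3/3* (log2 fold change, standard error, statistic, *p*-value and adjusted *p*-value) and were not used, so genotypes were not compared. Samples were grouped from their labels. The labels name 2 EC and 5 PVC libraries as run more than once.

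Values were computed with Python 3.11.15, numpy 2.4.6 and pandas 2.3.3 and plotted with matplotlib 3.10.9. Exonic lengths came from GENCODE vM1 on NCBIM37, which is the same assembly as mm9 and gave a length for 96.5% of the genes used for scaling; the annotation the authors counted against may differ. Copies were searched with blastn 2.17.0. The scaling was tested on simulated data with a known factor and few changed genes, drawn at random in both directions. Shifts of a whole cell type were not simulated. The median EC to PVC ratio was taken over genes at 10 or more in both regions, and the fold called was 1.5. Alternatives were 5 other scalings, a margin of 25% or a fold of 2, other lengths and a minimum of 100 for lists. All 10 astrocyte genes are named. Of the further lists, genes of related families and the highest and lowest gene of each list are named, and for *Gfap* and *Aldh1l1* the 3 genes nearest in level. The genes and lists were chosen with earlier results of these data known. Libraries of both regions share mice, and with 1 mean per region no error can be given. Some genes of the further lists are not reported here by name.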

Additional observations from a re-analysis of the deposited data

How the results depend on the processing

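The number of astrocyte genes past 1.5-fold was 1 higher and 0 lower in the EC under all 5 other scalings, which shifted all genes by at most 0.03 on the log2 scale. At a margin of 25% between regions 2 genes were higher and 1 was lower in the EC, and at 2-fold 0 were higher. The median log2 difference of the 10 genes, 0.09, was 0.12 when scaled by the sum of counts, with or without the 100 most abundant genes, 0.11 by the upper quartile or over genes with at least 100 counts, and 0.07 over all genes above 0. By length of the longest transcript, 7 of the 10 genes in the EC against 8 in the PVC held their place in the order. With no length correction 2 in the EC and 4 in the PVC did. With list genes of at least 100 counts, 9 of 20 list medians were the same to the second decimal. The medians of the intermediate filament (-0.19), endfoot (-0.04), S100 (-0.01) and choroid plexus (-1.08) genes then changed sign. That of the connexins went from -0.08 to -0.69, and that of the reactive astrocyte genes from 0.35 to 0.20. No paired analysis was possible because only means over all libraries of a region were used, and for the same reason no replicate could be left out in turn. Precision and depth per library are unknown, so a difference near 1.5-fold, as for *Gfap* and *Aqp4*, cannot be set against the spread between mice.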
